A study of Homo sapiens with 4 samples.

Results

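SUM149 is an established cell line from an inflammatory ductal carcinoma of the breast, described in the study's supplement as basal B and negative for the estrogen, progesterone and HER2 receptors. The comparison described here sets SUM149 cells exposed to 2.5 uM of Ricolinostat (ACY1215) for 3 hours against untreated SUM149 cells, that is 2 of the 4 arrays of the series; the other 2 hold cells exposed for 6 and 12 hours. Cells of all groups were plated a day before exposure and differ, as far as the labels say, only in the inhibitor and its duration. There is 1 array per group on 1 slide, so no difference was tested and no p-value is given. No array of cells with vehicle alone was analysed here, so the inhibitor, its solvent and the handling of the plates cannot be told apart. The question the labels set is how the transcripts of these cells differ early after an HDAC6 inhibitor is added.

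HDAC6 is a mostly cytosolic deacetylase that removes acetyl groups from α-tubulin, cortactin and HSP90, and it carries ubiquitinated, misfolded proteins to the aggresome. Ricolinostat is a hydroxamic acid inhibitor with preference for HDAC6 that can also reach the class I enzymes HDAC1, HDAC2 and HDAC3, which act on histones and on transcription. Genes with short-lived transcripts, such as the immediate early genes, can be read out within a few hours of any such change.

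Each array was a two-colour Agilent array with the sample in Cy5 and a common reference in Cy3. The value of a gene on an array is the log2 ratio of Cy5 over Cy3, and its change is the ratio at 3 hours minus the ratio of the untreated array. Of 60901 spots that are no controls, 32341 stood well above background in Cy5 and in Cy3 on each array, carried no outlier flag and had Cy3 signals within 2-fold of each other, and they gave a value for 20485 genes, which is 58.8% of the genes named on the array. In this text a gene rose or fell when its change reached 2-fold, a log2 change of 1 or -1. On this basis 594 genes rose (2.9% of all genes measured) and 303 fell (1.48%), and the median change of all genes was -0.021.

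The error that the design allows to be measured is technical. Over 297 probes printed in 5 or more spots, the SD of the log2 change between spots of the same probe was 0.11, and it was 0.21 for the 20 of these probes whose Cy5 signal was below the median of all genes. Of 10 spike-in probes, which read control transcripts of a virus added at labelling, 9 were well above background in every spot, and the changes of all these lay between -0.02 and 0.22. Different probes of a gene differed more, with an SD of 0.34. For the 121 risen genes with another measured probe, 86.8% of 151 other probes moved in the same direction and 31.8% also reached 2-fold, and for the 53 fallen genes these shares were 84.6% and 26.2% of 65 probes. None of these errors holds the variation between cultures.

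Changes of 2-fold were more common among dim genes. Among the 4097 dimmest genes by mean Cy5 signal 4.22% rose and 2.44% fell, whereas among the 4097 brightest 0.513% rose and 0.366% fell. The part that spot error has in this gradient was not tested. The largest change in each direction belonged to single probes outside the rule for named genes and was looked up after the values were seen: DACT3, an antagonist of Wnt signalling, had a log2 change of 4.15, and HAS2, which makes hyaluronan, had one of -2.73. That rule names genes with 1 probe only above the median Cy5 signal. No range over the alternative settings was computed for DACT3 and HAS2.

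**Figure D1:**
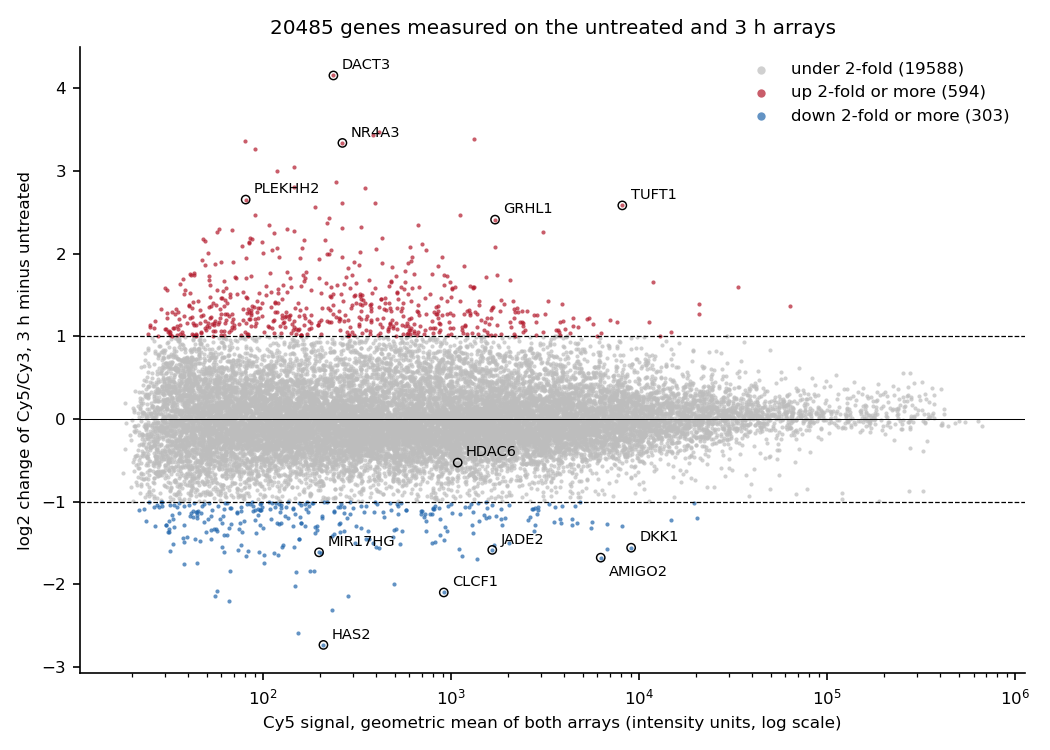
Each point is 1 of 20485 genes. The horizontal axis is the Cy5 signal in intensity units on a log scale (geometric mean of the untreated and 3 h arrays) and the vertical axis is the log2 change of Cy5 over Cy3. Dashed lines mark 2-fold, beyond which lie 594 risen and 303 fallen genes, and 12 genes are ringed and named.

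**Figure D2:**
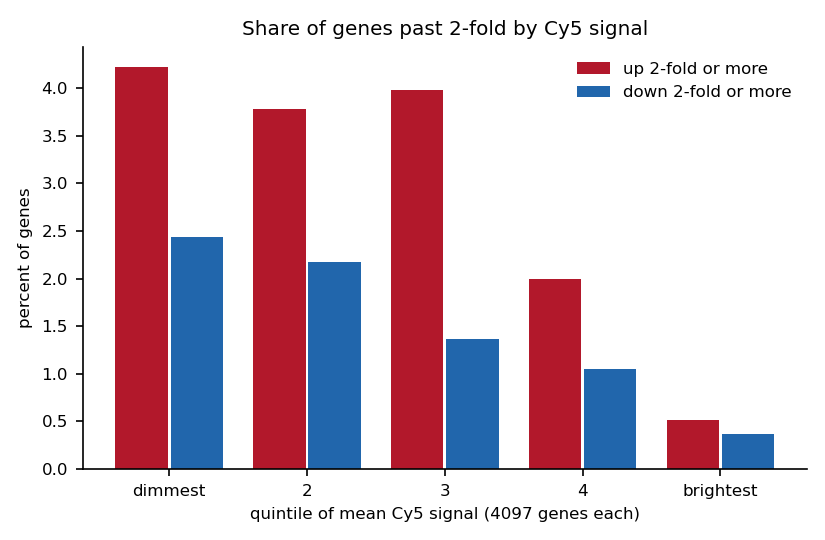
Bars give the percent of genes that rose or fell at least 2-fold in 5 equal groups ordered by mean Cy5 signal. The share that rose goes from 4.22% in the dimmest to 0.513% in the brightest group.

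The gene of the inhibited enzyme stayed within 2-fold. HDAC6 had a log2 ratio of -0.70 on the untreated array and -1.23 at 3 hours, a change of -0.53, and its other probe changed by -0.45. The Cy5 signal of the first probe was 1073 units untreated and 1094 units at 3 hours, while its Cy3 signal was 1749 and 2572 units. Over all genes the median Cy5 shift between the arrays was 0.20 on the log2 scale. This spot lies in an area of the slide with many defective spots, and the change ranged from -0.53 to -0.18 over the alternative ways of processing. At 6 and 12 hours the changes from the same untreated array were -0.53 and -0.70. Among the 16 deacetylases measured, which include class I enzymes and sirtuins, none reached 2-fold (median 0.02). HDAC3 had the largest value in this list, 0.78.

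Immediate early genes, which encode transcription factors switched on without new protein synthesis, held the largest list member of all. Of 22 in the list 19 were measured, 6 rose and none fell, beside 2.9% risen and 1.48% fallen of all genes. There were 14 members above 0, with a median of 0.57 beside -0.021 for all genes. NR4A3, an orphan nuclear receptor, had a log2 ratio of -3.77 untreated and -0.43 at 3 hours, a change of 3.34, with a Cy5 signal of 76.4 and 912 units. This is by far the highest value of the list. Its paralogs NR4A1 and NR4A2 changed by 1.49 (ratio -3.48 to -1.98) and 1.39 (-1.49 to -0.10), so all 3 members of this receptor family rose. EGR2, a zinc finger factor, went from a ratio of -4.06 to -1.93, a change of 2.14, from a Cy5 signal of only 37.6 units in untreated cells. JUN, a subunit of AP-1, changed by 1.08 and the antiproliferative gene BTG2 by 1.02.

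The best known members of the same list stayed within 2-fold. FOS had a change of 0.78, FOSB of 0.82 and EGR1 of 0.39. FOSL1 at -0.89 and MYC at -0.95 were the lowest of the list. JUN, BTG2, NR4A1, NR4A2 and EGR2 each dropped under 2-fold in at least 1 alternative processing, EGR2 to 0.60 at the lowest, whereas NR4A3 stayed at 1.92 or more. Only 1 probe was measured for NR4A3, EGR2, NR4A1, JUN and BTG2.

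The promoter of NR4A3 is printed because this gene had the largest change in any list and its family rose together. The window holds the bases before the transcription start in RefSeq and a short stretch after it, on the plus strand of GRCh38.p14 at chr9:99821635-99821934. Capitals mark the half-site of the cAMP response element, TGACG or its reverse complement CGTCA.
NR4A3: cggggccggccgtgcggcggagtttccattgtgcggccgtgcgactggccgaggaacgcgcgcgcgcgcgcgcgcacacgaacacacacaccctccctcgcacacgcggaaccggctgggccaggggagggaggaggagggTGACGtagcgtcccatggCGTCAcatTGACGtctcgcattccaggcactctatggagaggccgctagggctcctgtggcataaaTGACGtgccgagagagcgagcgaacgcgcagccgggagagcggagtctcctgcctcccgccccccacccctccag

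The window holds the half-site 4 times, of which the first begins 109 bases and the last 25 bases before the start. The full element TGACGTCA is not in these letters. The windows of NR4A1 and EGR2 held no half-site, those of JUN, BTG2 and FOS held 1 each and that of EGR1 held 2. No window was available for NR4A2. The half-site stands in 6828 of 27305 promoter windows of this length from RefSeq, and among 397 risen genes with a window the share is 35.0%, beside 31.8% of the 12748 measured genes with a window and 30.1% of the 176 fallen ones. The full element stood in 3.78% of windows of risen, 3.41% of fallen and 2.91% of measured genes. The AP-1 motif TGACTCA stood in 4.03% of windows of risen, 3.98% of fallen and 3.68% of measured genes. The E-box CACGTG stood in 8.82% of risen, 8.52% of fallen and 9.47% of measured genes. These shares are a description and were not tested. The median GC content of the windows was 66.3% for risen, 64% for measured and 62.3% for fallen genes. The part of GC content in the shares was not tested. Both strands were searched, and the half-site is part of the full element.

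Feedback genes of the growth factor pathways showed single large members. In the list of MAPK phosphatases and Sprouty genes 1 of 14 measured rose, beside 2.9% of all genes. This was DUSP5, a nuclear phosphatase of ERK, from a ratio of -1.46 to 0.15 (change 1.60). SPRY2, an inhibitor of receptor tyrosine kinase signalling, had a change of -0.87 and DUSP6, the cytosolic ERK phosphatase, one of -0.16. The 14 members split evenly, 7 above and 7 below 0, and their median of 0.16 turned to -0.034 with Cy5 alone and to -0.095 without the background filter. Of the ERBB receptors and ligands 10 were measured and none reached 2-fold. EGFR was at -0.32, amphiregulin (AREG) at 0.13, and ERRFI1, a feedback inhibitor of EGFR, was highest at 0.72. Krüppel-like factors gave 2 of 15 risen, beside 2.9% of all genes, with KLF2 at 1.24 and KLF10 at 1.22. KLF4 stayed just below at 0.92. With Cy5 alone the KLF10 value was 0.33, and with a normexp offset of 50 that of KLF2 was 0.80.

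YAP, a coactivator, and the DNA-binding TEAD transcription factors act together downstream of the Hippo pathway. Their best known target genes CCN1 (CYR61) and CCN2 (CTGF), both secreted matrix proteins, rose by 1.59 and 1.13 (2.9% of all genes rose). The other 11 measured members of that list lay between -0.38 and 0.47. CCN1 had a ratio of -0.91 untreated and 0.68 at 3 hours, CCN2 of -2.45 and -1.32. With a normexp offset of 50 the change of CCN2 was 0.79. YAP1 itself was at -0.38. The median of the 13 was -0.09, and it was 0.16 with a normexp offset of 50, a background correction that shrinks the changes of dim genes.

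Secreted signalling proteins went in both directions. Of 16 chemokines and cytokines measured, CCL20 rose and CXCL3, IL24 and LIF fell (2.9% of all genes rose and 1.48% fell). Of the falls in this list only that of CXCL3 was past 2-fold in every setting. CXCL3, a neutrophil attractant, had a ratio of 3.67 untreated and 2.37 at 3 hours, a change of -1.30. IL24, a cytokine of the IL-10 family, changed by -1.08 from 3.57 to 2.49, and by -0.86 with a normexp offset of 1. CCL20, which attracts cells with the receptor CCR6, was close to the line at 1.01, from 1.08 to 2.09, and reached 1.93 at 6 hours and 2.71 at 12 hours. IL6 (-0.38), CXCL8 (0.23) and CXCL1 (0.03) stayed within 2-fold at 3 hours.

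The fall of LIF came with that of CLCF1, which was named by its size alone. Both encode cytokines of the IL-6 family that signal through gp130 and the LIF receptor. CLCF1 had a ratio of 2.53 untreated and 0.43 at 3 hours, a change of -2.10, with Cy5 signals of 1883 and 443 units. LIF went from 0.12 to -1.53, a change of -1.66, with Cy5 signals of 1776 and 731 units, but its dimmer probe changed by only -0.02 and the median of its probes by -0.84. DKK1, a secreted Wnt inhibitor, fell by 1.56 on the log2 scale from a Cy5 signal of 14237 to 5769 units. These 3 genes were at -1.61, -0.54 and -0.16, in the order CLCF1, LIF, DKK1, at 12 hours.

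Most NF-κB subunits and feedback genes were within 2-fold at 3 hours. Of 15 measured only NFKBIZ, a nuclear IκB protein, rose, at 1.05 (0.85 with a normexp offset of 50), beside 2.9% risen of all genes. The inhibitor NFKBIA was at -0.21 and the survival gene BIRC3 at -0.17, and 9 of the 15 were below 0. In the JAK-STAT list of 19, STAT2 (1.08, and 0.69 with Cy5 alone) and the kinase PIM1 (1.02, and 0.99 in the authors' table) rose and SOCS3, the main feedback inhibitor of gp130 signalling, was at 0.63. None of 19 interferon-stimulated genes reached 2-fold, and IFIT3 (-0.87) and MX1 (-0.75) were lowest.

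Targets of p53 had the highest list median, 0.59, with 4 of 15 risen (2.9% of all genes rose). TP53INP1, which promotes p53-dependent death and autophagy, had a ratio of -4.10 untreated and -2.06 at 3 hours, a change of 2.04. RRM2B, a ribonucleotide reductase subunit for DNA repair, changed by 1.68 and its second probe by 1.04. SESN1 (1.19) and BTG2 (1.02) were the others that rose. Each of these 4 was under 2-fold in at least 1 other setting, with lowest values of 0.97 for TP53INP1, 0.67 for RRM2B, 0.74 for SESN1 and 0.88 for BTG2. MDM2, the ubiquitin ligase of p53, was at -0.36, GDF15 at -0.41 and XPC at -0.39, so these targets did not share the direction. With genes above the median Cy5 signal alone the median of this list was 0.0042. The Cy5 signal of TP53INP1 was 49.6 units untreated and 249 at 3 hours, and that of RRM2B 269 and 494 units. Of the BCL2 family PMAIP1 (NOXA), a death-promoting member, rose at 1.26, and BCL2L1 (BCL-XL) was lowest at -0.75.

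Cell cycle genes as a group stayed near 0. Of 25 genes of DNA replication and 22 of mitosis none fell, and the medians were -0.12 and -0.02. The kinase gene NEK2 alone rose, at 1.01 (0.81 as the median of its probes). Of all genes 2.9% rose and 1.48% fell. Inhibitors of the cycle and the MYC network held larger values. CDKN2D, which encodes the CDK4 and CDK6 inhibitor p19, went from -0.28 to 1.38, a change of 1.66, CDKN2C was at 0.93 and CDKN1A (p21) at 0.46. MXD1, an antagonist of MYC, changed by 1.74 with its second probe at 1.19, and MYCL by 2.04, beside MYC at -0.95. With a normexp offset of 50 the change of MYCL was 0.87. CDKN1A was at 1.49 at 6 hours and 1.93 at 12 hours. CCND1, which encodes cyclin D1, was at -0.57.

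Genes known from other work to rise with inhibitors of class I deacetylases gave 3 of 19 above 2-fold, beside 2.9% of all genes. Their median was 0.41. RHOB, a small GTPase, had a ratio of -2.31 untreated and -1.05 at 3 hours, a change of 1.27. TXNIP, an inhibitor of thioredoxin, changed by 1.22 and GADD45B, a stress sensor, by 1.21, or 0.68 with Cy5 alone. The glutaredoxin GLRX at 0.91 and CDKN1A at 0.46 were short of 2-fold at 3 hours, and both were above it at 6 hours (1.70 and 1.49). The replication-type histone genes H1-2, H2BC5, H2BC12 and H2AC6 of the same list were between -0.38 and -0.25. TXNIP went the other way in time, with 0.74 at 6 hours and 0.23 at 12 hours.

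Stress responses that follow misfolded proteins differed from one branch to another. The heat shock list had 2 of 19 members risen, beside 2.9% of all genes. These were HSPA1A and HSPA1B, the inducible HSP70 genes, at 1.37 and 1.27. Their ratios were 0.68 and 0.78 untreated and 2.05 for both at 3 hours. Their transcripts are nearly identical, so the 2 probes may report the same RNA. DNAJB1, the HSP40 that works with HSP70, was at 0.57, HSPH1 at 0.38 and HSPA8, the constitutive form, at -0.18, and the median was 0.13.

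The promoters of this pair are printed to show how alike they are. Capitals mark GAANNTTC, the core of the heat shock element, and in HSPA1A also the TGACG half-site. Both lie on the plus strand of GRCh38.p14, at chr6:31815293-31815592 and chr6:31827488-31827787.
HSPA1A: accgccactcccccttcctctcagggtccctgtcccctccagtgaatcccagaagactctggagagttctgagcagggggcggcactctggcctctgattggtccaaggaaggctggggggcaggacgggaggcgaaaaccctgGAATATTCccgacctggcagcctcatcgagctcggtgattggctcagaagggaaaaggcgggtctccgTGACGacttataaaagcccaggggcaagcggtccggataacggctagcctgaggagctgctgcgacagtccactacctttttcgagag
HSPA1B: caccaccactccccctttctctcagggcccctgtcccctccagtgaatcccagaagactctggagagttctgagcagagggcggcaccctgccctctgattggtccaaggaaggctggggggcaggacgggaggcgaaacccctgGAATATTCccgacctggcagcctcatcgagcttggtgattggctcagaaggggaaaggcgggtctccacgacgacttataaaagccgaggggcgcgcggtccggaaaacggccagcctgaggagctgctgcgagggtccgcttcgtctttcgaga

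Shifted by 1 base, the windows agree at 277 of 299 positions (92.6%). The element begins 106 bases before the start in HSPA1A and 105 in HSPA1B. It stands in 6.87% of all windows, in 6.05% of risen, 6.25% of fallen and 5.12% of measured genes.

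The unfolded protein response of the endoplasmic reticulum has several arms. In the list of its chaperones and XBP1 16 of 20 measured members were above 0, with a median of 0.33. Only EIF2AK3 (PERK), a sensor kinase of this pathway, rose, beside 2.9% of all genes. It went from -1.04 to 0.84, a change of 1.89. HSPA5 (BiP), the central chaperone, was at 0.29 and reached 1.51 at 12 hours. MANF (0.70), EDEM1 (0.71) and PDIA4 (0.63) were higher, and XBP1 was lowest at -0.72. The ATF4 branch, which drives amino acid supply, lay on the other side of 0 with 17 of 21 members below and the lowest median of all lists, -0.39. None of its members reached 2-fold. TRIB3 was at -0.99, the amino acid transporter subunit SLC3A2 at -0.85, ASNS at -0.45 and ATF4 itself at -0.52. SESN2 had the highest ratio change of the branch, 0.95, but its Cy5 signal was 349 units untreated and 352 at 3 hours.

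Redox genes, the aggresome pathway and the substrates of HDAC6 held few large values. In the list of NRF2 and redox genes TXNIP alone rose, and HMOX1 (-0.70), NQO1 (-0.41) and KEAP1 (-0.94) lay below 0. The 19 aggresome and autophagy genes had a median of 0.14 with WIPI1 highest at 0.87 and MAP1LC3B at 0.66. Of the 16 tubulins and other substrates none reached 2-fold, and the α-tubulin genes TUBA1A, TUBA1B and TUBA1C were at -0.29, -0.13 and -0.26. None of 28 proteasome subunits, 43 ribosomal proteins, 25 oxidative phosphorylation genes, 12 genes of the metallothionein list, 18 hypoxia targets and 14 genes of cholesterol and fatty acid synthesis reached 2-fold. The medians of the first 3 of these lay between 0.03 and 0.05.

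Genes of acetylation itself included 1 fall. KAT6B, a histone acetyltransferase, had a ratio of 0.88 untreated and -0.67 at 3 hours, a change of -1.55, and of -2.95 at 6 hours, though its dim second probe changed by only -0.15 and a normexp offset of 50 gave -0.50. The other 15 of the list, among them EP300 (-0.44) and CREBBP (-0.62), stayed within 2-fold. Of the ID genes and TGF-β targets HEY1, a Notch and BMP target, rose at 1.38 and ID2 was just short at 0.99. The long noncoding RNAs gave NEAT1, the scaffold of paraspeckles, at 1.39 (0.62 as the median of its probes) and 2 falls, CCAT1 at -1.19 and MIR17HG at -1.61. Across the 33 lists 569 different genes were measured, and 14 lists had no member past 2-fold. Of the 569 genes 31 rose (5.45%) and 6 fell (1.05%), beside 2.9% and 1.48% of all genes. The lists were chosen with earlier results known, so these shares are not evidence about lists of their kind.

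**Figure D3:**
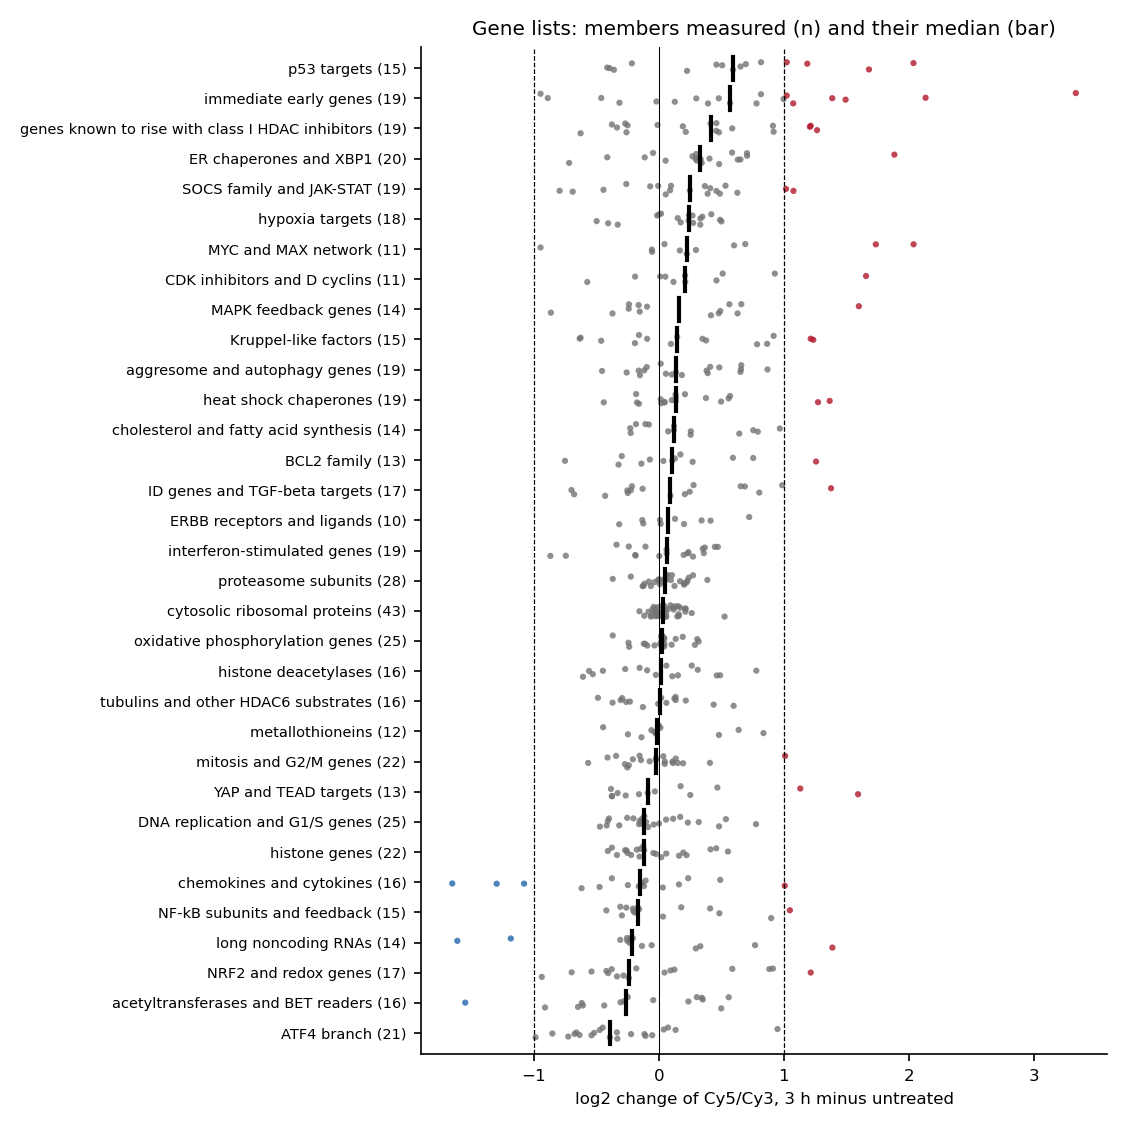
Each row is a gene list with its number of members measured, each point a member, and the bar the median. The horizontal axis is the log2 change at 3 hours, with dashed lines at 2-fold. The p53 targets and the immediate early genes have the highest medians (0.59 and 0.57) and the ATF4 branch the lowest (-0.39).

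The 12 largest rises among genes whose 2 or more measured probes agree in direction were led by PLEKHH2, a cytoskeletal FERM-domain protein. It had a ratio of -3.12 untreated and -0.47 at 3 hours, a change of 2.65, with the second probe at 2.06. Its Cy5 signal in untreated cells was 28.2 units, near background, and 231 units at 3 hours. STON1, an adaptor of endocytosis, resembled it with probes at 2.13 and 2.13, from a Cy5 signal of 39.6 to 177 units. With a normexp offset of 50 the changes of PLEKHH2 and STON1 were 0.82 and 0.83.

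Epithelial and developmental transcription factors were among these rises. GRHL1, a grainyhead factor of surface epithelia, had a ratio of -0.44 untreated and 1.97 at 3 hours, a change of 2.41, from a Cy5 signal of 659 to 4452 units, and 1.32 on its dim second probe. CASZ1, a zinc finger factor of heart and eye development, changed by 2.30 with the second probe at 0.10. PAX6, the paired box factor of the eye, changed by 2.09 with the second probe at 0.45. ZNF608, a zinc finger protein, was at 2.24 with probes from 0.42 up. The probes of the last 3 thus agreed in direction and not in size.

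Membrane, transport and metabolic genes made up most of the rest. SLC25A27, a mitochondrial carrier, changed by 2.30 and 1.72 on its probes, and LYST, a regulator of lysosomes mutated in Chediak-Higashi syndrome, by 2.05 and 1.07. SAMTOR (C7orf60 on the array), a sensor of S-adenosylmethionine upstream of mTORC1, had a ratio of -0.74 untreated and 1.34 at 3 hours, a change of 2.08, and 1.08 on its second probe. BAIAP2-DT, a noncoding transcript, changed by 2.07 and 1.37, ZSWIM6 by 1.96 and 1.07, and EPB41, a protein of the membrane skeleton, by 1.88 and 0.47. Of these 12 genes 6 stayed past 2-fold in every one of 13 alternative settings that measured them: GRHL1, CASZ1, SAMTOR, BAIAP2-DT, LYST and ZSWIM6.

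The 6 largest rises among brighter genes with 1 measured probe all stayed past 2-fold in those settings. Brightness here is the mean Cy5 of both arrays. In untreated cells DENND2C (367 units), BBS12 (258), WDR47 (334) and CFAP184 (262) were below the median of 572 units, so their signal at 3 hours brought them in. A gene chosen by this rule keeps its value with the probe median and with the filter on Cy5 above the median. These settings could therefore not remove it. TUFT1, first known from dental enamel, was the brightest, with a Cy5 signal of 3075 units untreated and 21512 at 3 hours and a ratio going from -1.78 to 0.80, a change of 2.58. DENND2C, an activator of Rab GTPases, changed by 2.47, from 0.72 to 3.19. BBS12, a chaperonin-like protein of the primary cilium, WDR47, a microtubule-associated protein, and CFAP184 (CCDC96), a ciliary protein, changed by 2.34, 2.12 and 2.05. ARID3B, an AT-rich DNA-binding factor, changed by 2.26, but its Cy3 signal was 6683 units on the untreated and 3645 on the 3 h array, and with Cy5 alone its change was 1.18.

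The 12 largest falls with agreeing probes came from genes of various roles. JADE2, a scaffold of the HBO1 histone acetyltransferase complex, had a ratio of 2.08 untreated and 0.49 at 3 hours, a change of -1.59, with a second probe at -1.25 and Cy5 signals of 2476 and 1105 units. It was at -2.27 at 6 hours and -1.96 at 12 hours. MED18, a subunit of the Mediator, changed by -1.52 and its second probe by -2.08. ZFP64, a zinc finger factor, had 4 probes between -1.50 and -0.65. CENPBD1P, a transcribed pseudogene listed as CENPBD1 on the array, changed by -1.50 and -1.12, and ARMC5 by -1.36 with the second probe at -0.28.

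A pair of noncoding hosts of small RNAs was among these falls. MIR17HG, the host of the miR-17-92 cluster, had a ratio of -0.05 untreated and -1.66 at 3 hours, a change of -1.61, with its other probes at -1.11 and -0.63. SNHG4, a host of small nucleolar RNA, changed by -1.34 with the second probe at -0.96, from a Cy5 signal of 80.9 to 34.5 units. With a normexp offset of 50 the changes of MIR17HG and SNHG4 were -0.98 and -0.24. SNHG4 was the only 1 of 23 SNHG genes measured that fell, beside 1.48% of all genes. Of the remaining falls C3orf80 had 3 probes between -1.87 and -1.44, and ADAMTS6, a metalloproteinase, had 2 at -1.84 and -1.38. UNC5C, a netrin receptor, was at -2.15 with a second probe at -0.37, and its spot lies in a defective area. With a normexp offset of 50 its change was -0.03. Of these 12 falls JADE2, MED18 and CENPBD1P stayed past 2-fold in every setting.

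Bright genes with 1 probe gave 6 falls that all stayed past 2-fold in every setting. As with the rises chosen this way, the probe median and the filter on Cy5 above the median could not remove them. CLCF1 and DKK1 are described above. AMIGO2, an adhesion protein of the cell surface, had Cy5 signals of 10327 and 3777 units, a change of -1.68. MEPCE, which caps the 7SK RNA that holds P-TEFb inactive, changed by -1.58, from 1.12 to -0.46, and was at -2.22 at 6 hours. MID1IP1, a stimulator of fatty acid synthesis, changed by -1.57 and the actin-like gene ACTL10 by -1.70.

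**Figure D4:**
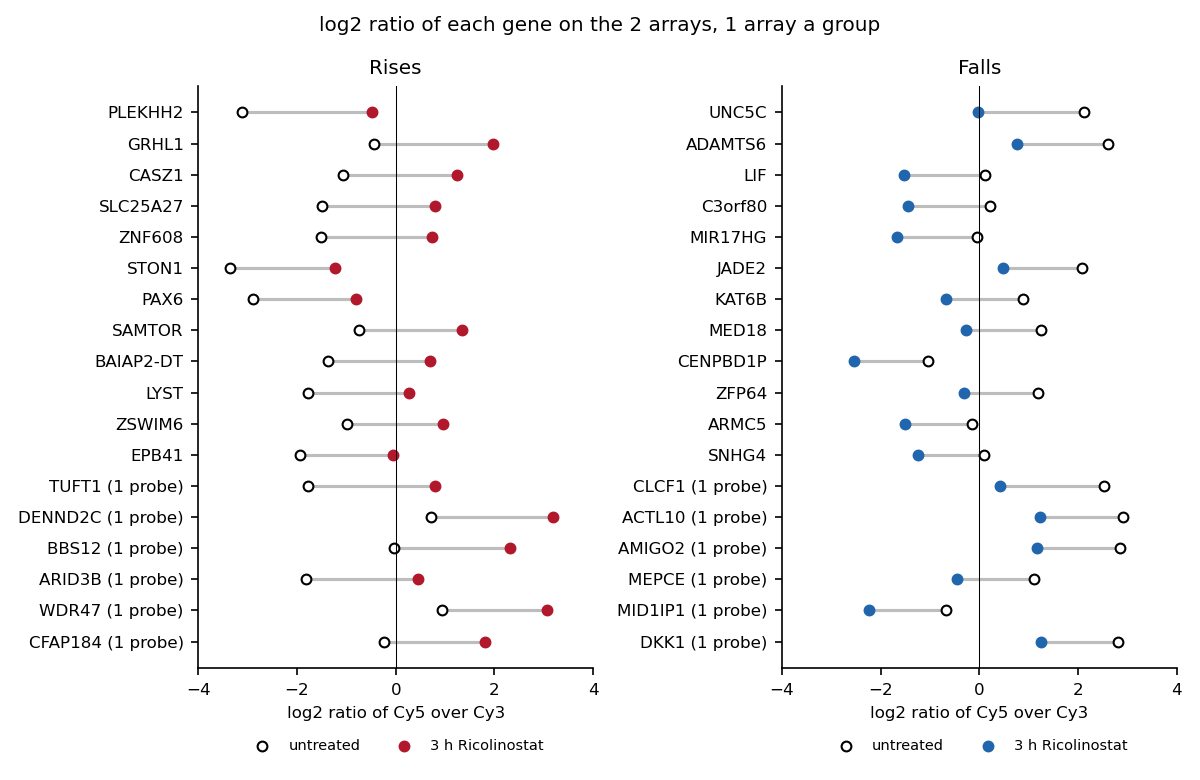
Open circles are the log2 ratio of Cy5 over Cy3 on the untreated array and filled circles on the 3 h array, for the 18 rises and 18 falls chosen by size. Lengths of the lines are the changes, from 1.88 to 2.65 for the rises and from -2.15 to -1.34 for the falls. Zero is the level of the reference and differs in meaning from gene to gene.

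The same spots gave values at 6 and 12 hours, which share the untreated array with those at 3 hours and are therefore listed side by side without a measure of likeness. NR4A3 was at 3.34, 3.15 and 2.70 at 3, 6 and 12 hours, EGR2 at 2.14, 2.11 and 1.45, and DUSP5 at 1.60, 1.99 and 1.49. CCN1 was at 1.59, 2.90 and 2.81 and CCN2 at 1.13, 2.71 and 2.06. The value at 3 hours was thus the highest for NR4A3 and EGR2 and the lowest for CCN1 and CCN2. For NR4A3 and EGR2 the values at 3 and 6 hours differed by less than 0.21, the SD between spots of dim probes. No peak at 3 hours can be read from them. GRHL1 was at 2.41, 3.05 and 2.98, TUFT1 at 2.58, 2.95 and 2.09, and ARID3B at 2.26, 1.76 and 0.94. EPB41 went from 1.88 and 1.54 to 0.46. Of the falls AMIGO2 was at -1.68, -2.67 and -2.08 and ADAMTS6 at -1.84, -1.97 and -0.25.

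**Figure D5:**
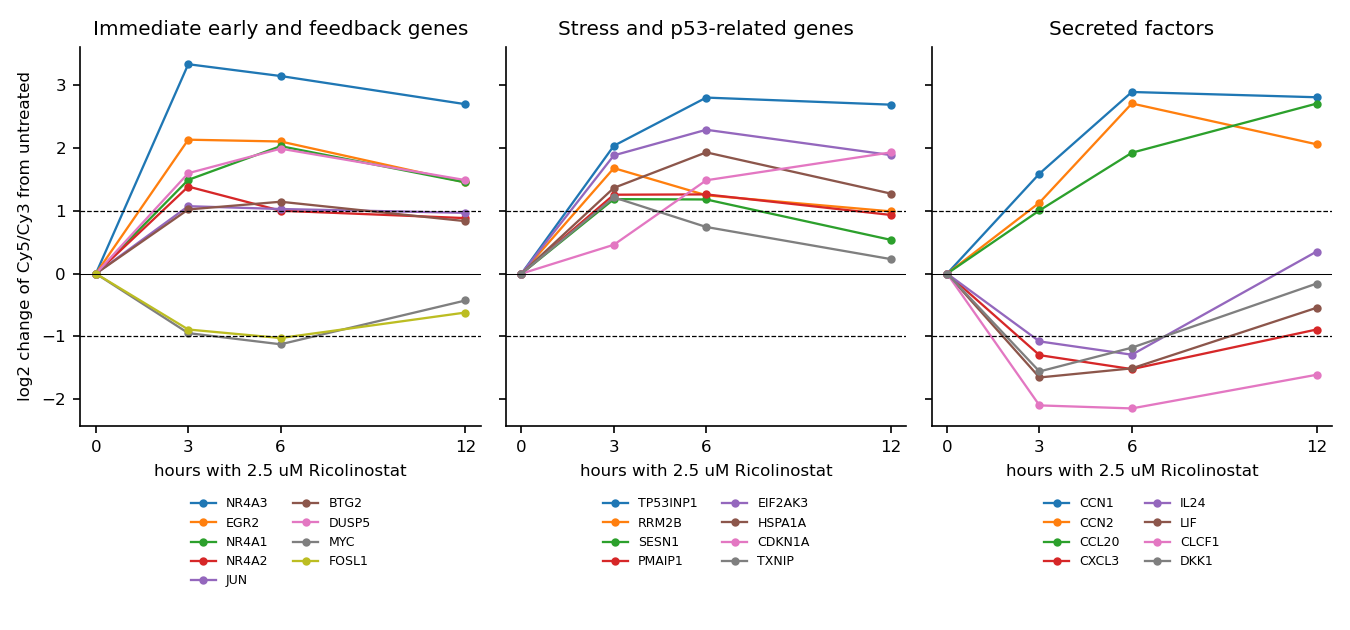
Lines give the log2 change from the untreated array, at hour 0 by definition, for the 3 exposures to Ricolinostat (horizontal axis, hours), with 1 array per time. Dashed lines mark 2-fold. NR4A3 is at 3.34 at 3 hours and 3.15 at 6 hours, whereas CCN1, CCL20 and CDKN1A are higher at 12 hours (2.81, 2.71 and 1.93) than at 3 hours (1.59, 1.01 and 0.46).

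Genes seen on 1 array alone have only a bound. At 3 hours 1188 genes were well above background in Cy5 that were not so in untreated cells. The bounds compare Cy5 signals alone, without the Cy3 ratio, and the median Cy5 shift of 0.20 was not taken out. By this measure 4 of the 1188 genes were at least 2-fold higher. CCNL1, a cyclin of RNA splicing, was at least 8.0-fold higher and LAMP3, a lysosomal membrane protein, at least 3.92-fold. ZFP69B was at least 3.38-fold and the defensin DEFB4A at least 2.24-fold higher. The log2 bound of DEFB4A was 1.16, and with the shift taken out it would be under 2-fold. In untreated cells alone 358 genes were well above background in Cy5. For none of these did the bound of the fall reach 2-fold, the highest being 1.67-fold for KEL. A bound under 2-fold, in either direction, does not exclude a larger change. These counts go with more spots well above background in Cy5 at 3 hours (63.1%) than in untreated cells (60.2%). The part of that difference in the counts was not tested.

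By gene type, 458 of 14163 protein-coding genes rose (3.23%) and 200 fell (1.41%), and 35 of 1761 long noncoding RNAs rose (1.99%) and 23 fell (1.31%). The median genomic span was 35.9 kb for risen, 14.3 kb for fallen and 27.4 kb for the other protein-coding genes. Small nucleolar RNAs, which guide modification of ribosomal RNA, had none of 200 risen, 14 fallen (7.0%), 167 below 0 and a median of -0.40. With a normexp offset of 50 only 1 of the 200 fell, with an offset of 1 there were 8, there were 7 in the authors' table, and among the 51 above the median Cy5 signal 2. Their median was -0.17 with the offset of 50 and between -0.43 and -0.34 in the other settings. Their median Cy5 signal was 233 units beside 572 units for all genes, and the part of brightness in this shift was not tested.

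The identity of the cells was read from marker genes fixed for the purpose. Of 9 epithelial markers 8 were well above background in Cy5 on both arrays and changed by -0.91 (KRT14) to 0.68 (CDH1). PGR was not well above background on either array, whereas ESR1 and ERBB2, whose receptors the line is described as lacking, were so on both and changed by 0.07 and 0.01. All 4 mesenchymal markers, 3 of 4 blood cell markers and all liver and melanocyte markers were above background too, so that this criterion does not set cell types apart on these arrays. ZEB1 was the only marker past 2-fold, at 1.34, and it was at 0.66 with a normexp offset of 50. The labels describe the Cy3 reference as a mixture of treated and untreated SUM149, but 565 genes were at least 8-fold brighter in Cy3 than in Cy5 on both arrays. The change between arrays takes out what the reference holds, but not a difference in Cy3 signal between the arrays, and with Cy5 alone 625 of the 897 changed genes were past 2-fold the same way.

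At the 2-fold line itself the last gene counted as risen was C21orf91 (1.0002) and the first not counted was LRRC1 (0.99927). On the other side ZNF285 (-1.0013) was counted as fallen and the unnamed transcript XLOC_l2_011424 (-0.99912) was not.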

How the data were processed

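The members and gene lists were chosen with earlier results of these data known. Per the labels, total RNA of each sample was labelled with Cy5 and a reference with Cy3. The authors deposited, for each of the 4 arrays, the scanner intensity of every spot with its local background, a processed signal after background subtraction and dye correction, a log10 ratio and quality flags, made with Agilent Feature Extraction 12.0.1.1. A table of log2 ratios, normalized by the authors in a way not given in the sources used here, was deposited too. On each array they followed the log2 ratios of the processed signals, with r of 0.975 to 0.984 over spots well above background in both channels. The medians of the authors' table were 0.046 to 0.069. All of its columns of sample values were matched to samples.

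Symbols came from that table, joined by row and column, and were updated through RefSeq accession, symbol or synonym in the GRCh38.p14 gene table, which held 16649 of the 20485 genes measured. Repeated spots were averaged, and where probes of a gene differed the one brightest in Cy3 represented it. Of 60901 spots 727 were flagged, 26681 missed the background rule in a channel of either array and 1152 differed over 2-fold in Cy3. No spot was saturated. Median Cy5 signals were 36 to 40 units over a background of 24. Each difference rests on 1 array a side, which limits the precision of every value.

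Named genes are HDAC6, the 12 largest rises and falls among genes whose 2 or more probes agree in direction, the 6 largest each way among genes with 1 probe above the median Cy5, and in each list the members past 2-fold and up to 4 others. Any further gene, including other list members that show the spread of a list, was chosen after its value was seen. Alternatives were normexp (offset 50 or 1) with loess and Aquantile in limma 3.58.1 and R 4.3.3, the authors' table, Cy5 alone, median centring, other Cy3 rules, areas left out (windows of 13 rows and 7 columns with 10% or more defective spots), other filters and thresholds, and, added after seeing the data, removal of the Cy3 shift. The rule and the normalization were tested on simulated data. Python 3.11.15, numpy 2.4.6, pandas 2.3.3, scipy 1.17.1 and matplotlib 3.10.9 were used. Some list members are not reported here.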

Additional observations from a re-analysis of the deposited data

Results flagged for a closer look

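Some values lay on opposite sides of 0 at 3 and at 12 hours. The difference between times was not tested, and both values share the untreated array. IL24 had a log2 change of -1.08 at 3 hours and 0.35 at 12 hours. Among list members within 2-fold at 3 hours IL6 went from -0.38 to 1.79 and BIRC3 from -0.17 to 1.94. The median of the chemokines and cytokines was -0.15 at 3 hours and 0.59 at 12 hours, that of the NF-κB subunits and feedback genes -0.17 and 0.22, and that of the NRF2 and redox genes -0.24 and 0.12. The members of each list went both ways, and no error of these medians was measured.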

How the results depend on the processing

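Against 594 rises and 303 falls, the alternatives gave 287 and 58 with normexp at an offset of 50, 1980 and 1385 at 1.5-fold, and 56 and 9 at 4-fold. Other settings changed the number of genes from 20485. The 10242 genes above the median Cy5 signal gave 178 rises (1.74%) and 85 falls (0.83%). Without the background filter 31691 genes gave 1915 (6.04%) and 1103 (3.48%). Falls alone moved by over 1.5 times with an offset of 1 (192) and with the authors' table (152). Among 14163 protein-coding genes 200 fell, but this share of 1.41% is close to the 1.48% of all genes. The share of rises among changed genes was 66.2%, and 83.2% with the offset of 50. Of 897 changed genes 273 were past 2-fold the same way with an offset of 50, 566 with an offset of 1, 451 in the authors' table and 625 with Cy5 alone. The median of the MAPK feedback genes, 0.16, was -0.034 with Cy5 alone and -0.095 without the background filter. Counted once for each list and setting, 394 medians stayed within the SD between spots of the main value, 32 moved by more and 2 were reversed. Counted once for each gene and setting, 685 changes of named genes and list members stayed within it and 208 moved by more. The medians of 9 lists, the MAPK list included, lay on both sides of 0 over the settings, so no direction is given for these. Of 72 named genes and list members 36 were past 2-fold in every setting that measured them. Defective areas held 5.06% of the measured spots. The causes of these shifts were left untested here. No paired analysis was possible because each group has 1 array.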

Other observations

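The gene families below were picked for their values and are described without a test. Of 10 measured genes of the ARID family, which bind AT-rich DNA or belong to chromatin remodelling complexes, 6 rose, beside 2.9% of all genes: ARID3B (2.26), ARID4A (2.19), ARID5B (1.35), ARID4B (1.31), ARID5A (1.27) and ARID3A (1.26). The subunits of the BAF and PBAF remodelling complexes were on the other side of 0, with ARID1A at -0.59, ARID2 at -0.32 and ARID1B at -0.14. With the median over the probes of a gene 4 of the 10 rose. The second probe of ARID5A was at -0.49 and that of ARID5B at 0.24.

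Of 7 measured HOXA genes, which set position along the body axis, 3 fell, beside 1.48% of all genes: HOXA11 (-1.31), HOXA9 (-1.31) and HOXA6 (-1.28, second probe -0.19). HOXA9 had 3 probes between -1.45 and -1.25 and was at -2.04 at 6 hours and -1.77 at 12 hours. HOXA4 (0.01), HOXA5 (-0.02) and HOXA10 (0.03) stayed near 0, although the second probe of HOXA10 was at -1.23. With an offset of 50 only 1 of the 7 fell.

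Scaffold and partner genes of the MYST acetyltransferase complexes held further falls beside JADE2 and KAT6B. ING5, a reader of methylated histone H3, changed by -1.28 with its second probe at -1.04, and EPC2, a subunit of the NuA4 complex, by -1.52. Of 14 enzymes, scaffolds and partners of these complexes measured 4 fell, beside 1.48% of all genes, and none rose. There were 4 members above 0, with KAT6A highest at 0.30. As a set they were not followed over the alternative settings. The call of KAT6B is lost with a normexp offset of 50 (-0.50), and its second probe was at -0.15. KAT7, the catalytic subunit that JADE2 binds, was at -0.91.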
